A study of Mus musculus with 20 samples.

Results

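The homeostatic microglia genes are 9 genes, P2ry12, P2ry13, Tmem119, Cx3cr1, Csf1r, Siglech, Sall1, Fcrls and Gpr34, that mark microglia at rest in the mouse brain. They were taken from a table of estimated read counts by mapping its Ensembl gene identifiers, without the version, to gene symbols, and were described whatever their values were. All 9 were found among the 46517 genes of the table, each in 1 row. All 9 also passed the filter on low counts in every fit, which left 15519 genes in corpus callosum, 15556 in optic nerve and 16440 over both tissues.

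Microglia are the resident macrophages of the central nervous system; they colonise the brain early in development and afterwards renew themselves in place. At rest they carry a set of surface receptors with which they read signals from neurons and from injured cells, and a small set of transcription factors that keep this identity, partly under transforming growth factor beta. When microglia respond to damage, demyelination or disease they commonly lower these genes, which is why the set is read as a sign of the resting state. White matter microglia also clear myelin debris and support myelin during development.

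The libraries came from dissected white matter of mice whose genotype label is Zdhhc9 knockout or wild type. ZDHHC9 is a palmitoyltransferase, an enzyme that attaches a fatty acid to proteins, and it is expressed in oligodendrocytes. Knockout corpus callosum (KO_CCg) had 6 libraries and wild-type corpus callosum (WT_CCg) 5, and knockout optic nerve (KO_ON) had 5 and wild-type optic nerve (WT_ON) 4. The series description says knockdown where the sample labels say knockout, and the sources used here do not give the allele, strain, sex or age. The labels do not say that libraries of a group came from separate animals, so p-values measure the spread between these libraries. Because whole tissue was used, fewer microglia and less of an RNA in each microglial cell cannot be told apart in any value below.

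Library totals ran from 15401130 to 26095622 estimated counts. Zdhhc9 itself was at 47.9 ± 5.34 CPM (counts scaled to library size; SD, n = 6) in knockout callosum against 184 ± 18.2 CPM (n = 5) in wild-type callosum, and at 42.5 ± 7.29 CPM (n = 5) in knockout nerve against 136 ± 15.5 CPM (n = 4) in wild-type nerve, without overlap in either tissue. A list of 30 other microglial identity genes was detected in every group, which at this depth does not test the label of the 9 genes. Neuron markers were abundant in the callosum, with summed levels of 2101 to 7666 CPM in knockout and 1808 to 5344 CPM in wild-type libraries. In the optic nerve their sums were 341 to 636 CPM in knockout and 380 to 614 CPM in wild-type libraries.

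To compare the 9 genes with each other, counts were divided by the length of the longest coding transcript and scaled to one common total in every library (TPM). Csf1r, the receptor for the growth factors CSF1 and IL-34 on which microglia depend for survival, had the highest mean TPM of the 9 in each of the 4 groups. It stood at 67.3 ± 6.38 TPM in knockout callosum, 81.8 ± 4.41 TPM in wild-type callosum, 151 ± 17.0 TPM in knockout nerve and 150 ± 9.99 TPM in wild-type nerve (SD, n = 6, 5, 5 and 4), and no library range of the gene next in order reached its own. Sall1, a transcription factor that keeps microglial identity, came next in the callosum with 39.7 TPM in knockout and 49.1 TPM in wild-type libraries, but its ranges overlapped those of Cx3cr1. Tmem119, a microglial surface protein whose function is little known, was the fifth in the callosum of both genotypes and the second in the optic nerve of both, at 79.2 TPM in knockout and 79.1 TPM in wild-type nerve. P2ry13 and Gpr34, both receptors of the same family as P2ry12, held the lowest places in all 4 groups, at 11.3 to 19.5 TPM on average, with overlapping ranges. P2ry12, Cx3cr1, Fcrls and Siglech lay between, and the neighbours P2ry12 and Sall1 in wild-type nerve, at 51.6 and 49.2 TPM, were ordered one way in 2 of 4 libraries and the other way in the rest.

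**Figure D1:**
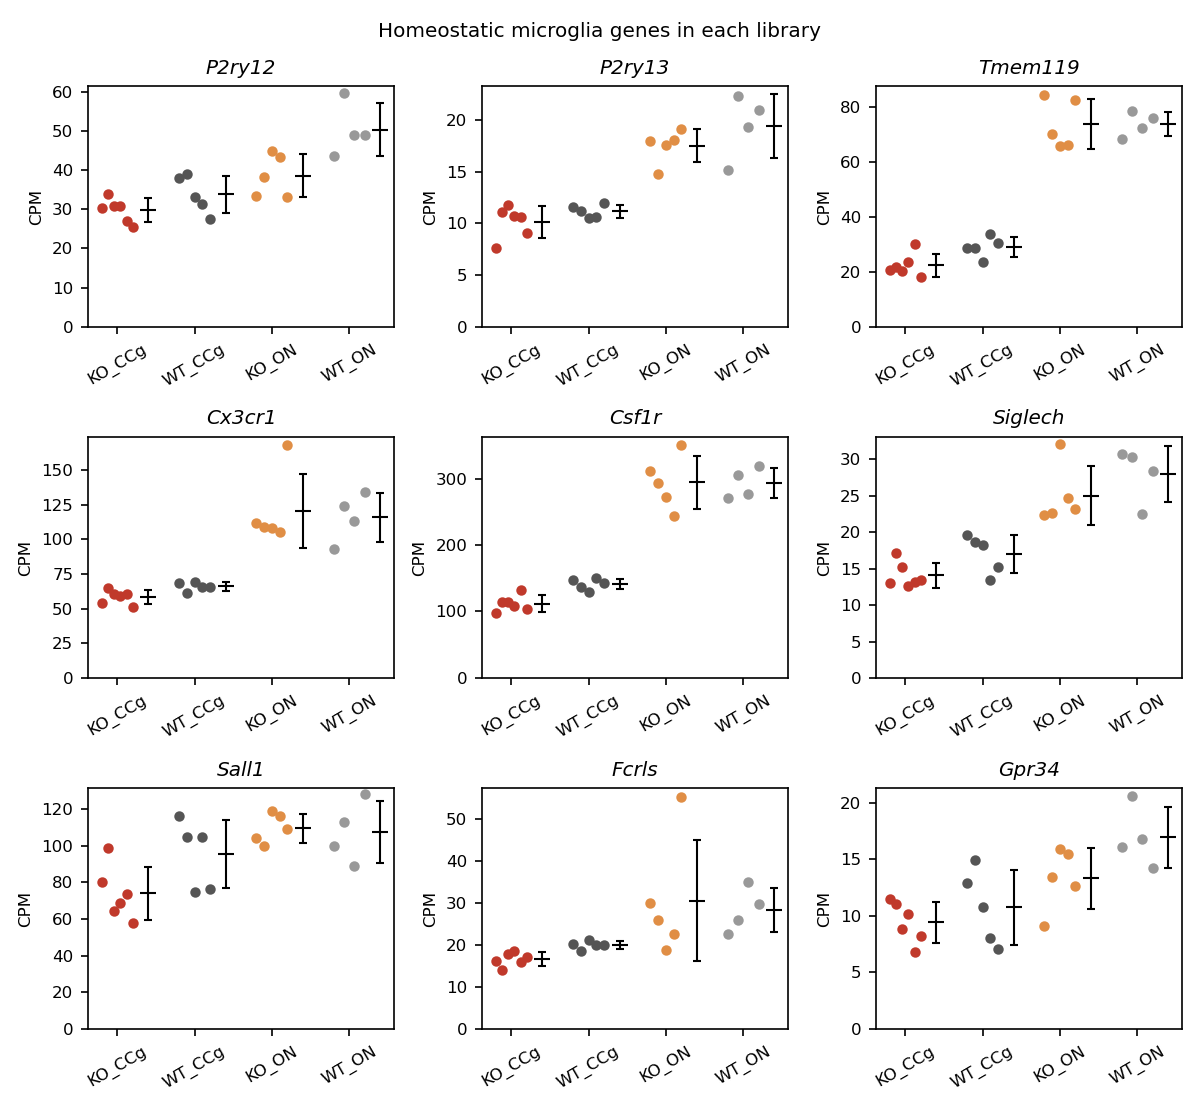
Level of each of the 9 genes (vertical axes, CPM from 0) in every library of knockout callosum (KO_CCg, n = 6), wild-type callosum (WT_CCg, n = 5), knockout optic nerve (KO_ON, n = 5) and wild-type optic nerve (WT_ON, n = 4). Points are libraries and bars are means with SD; the 2 genotypes overlap in every panel and tissue, and 1 knockout nerve library stands apart at 168 CPM of Cx3cr1 and 55.4 CPM of Fcrls.

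The purinergic receptors of the set lie side by side on chromosome 3 of mm10. P2ry13 spans chr3:59207892-59210882 and P2ry12 spans chr3:59216272-59262871, both on the minus strand, with 5.39 kb between them. P2Y12 is the receptor by which microglial processes move towards ADP and ATP from injured cells, and P2Y13 is a related ADP receptor. Both genes lie within Med12l on the opposite strand, and exons of P2ry12 overlap exons of Med12l. The library kit kept the strand, but whether the counting used it is not stated; Med12l itself ranged from 9.13 to 42.3 CPM. Fcrls, a scavenger receptor related to the Fc receptors that in the mouse is largely restricted to microglia, also lies on chromosome 3, at chr3:87250758-87263738 on the minus strand. Of the other members, exons of Cx3cr1 overlap an antisense gene, Gm33858, exons of Csf1r overlap the opposite-strand gene Hmgxb3 (29.1 to 56.9 CPM), and Gpr34 lies within Cask on the opposite strand without exon overlap.

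The promoters of these chromosome 3 genes are shown because they differ in whether they hold the exact letters GAGGAAG. These letters are a form of the site of PU.1, the factor that specifies macrophages and microglia. The windows are the 300 bases from 250 before to 50 after the RefSeq start in GRCm38.p6, on the minus strand, at chr3:59262936-59263235 for P2ry12, chr3:59210833-59211132 for P2ry13 and chr3:87263475-87263774 for Fcrls. Capitals mark the letters GAGGAAG, searched on both strands and present in 13.63% of 32851 RefSeq promoter windows of this length.
P2ry12: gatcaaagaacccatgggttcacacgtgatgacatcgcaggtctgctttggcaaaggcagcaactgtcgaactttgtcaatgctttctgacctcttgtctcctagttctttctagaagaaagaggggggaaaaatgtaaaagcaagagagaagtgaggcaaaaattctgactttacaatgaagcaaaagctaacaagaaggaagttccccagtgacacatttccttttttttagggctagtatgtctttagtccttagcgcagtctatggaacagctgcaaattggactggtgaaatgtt
P2ry13: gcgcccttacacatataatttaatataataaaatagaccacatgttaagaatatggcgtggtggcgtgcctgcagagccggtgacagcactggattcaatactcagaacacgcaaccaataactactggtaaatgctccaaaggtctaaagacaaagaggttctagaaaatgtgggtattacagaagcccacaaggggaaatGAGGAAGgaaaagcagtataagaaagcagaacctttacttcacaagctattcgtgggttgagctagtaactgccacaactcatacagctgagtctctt
Fcrls: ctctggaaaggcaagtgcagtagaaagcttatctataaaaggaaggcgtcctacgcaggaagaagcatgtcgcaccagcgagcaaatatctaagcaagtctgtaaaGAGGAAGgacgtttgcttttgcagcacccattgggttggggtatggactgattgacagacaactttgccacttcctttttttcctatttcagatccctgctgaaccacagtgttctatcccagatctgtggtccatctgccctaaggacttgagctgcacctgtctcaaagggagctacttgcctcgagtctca
P2ry13 and Fcrls each held 1 match and P2ry12 none. Only this exact string was searched, so other forms of the PU.1 site in these windows are neither marked nor counted. Windows for Cx3cr1, Siglech and Sall1, the last with 3 starts, held 0 matches. By symbol, 6 of the 9 genes were matched to RefSeq; Tmem119, Csf1r and Gpr34 were not searched.

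In the corpus callosum, all 9 genes had lower fitted levels in knockout than in wild-type libraries, by small amounts, and none passed the test over all genes. The log2 fold changes ran from -0.38 to -0.15 with a median of -0.28, that is, levels of 76.9% to 90.1% of wild type, against a median of -0.01 over all genes tested. With edgeR's quasi-likelihood test, 0 of 9 reached a Benjamini-Hochberg adjusted p under 0.05, where 0.0387% of all genes did. A negative fold change was found for 9 of 9 members and for 52.5% of all genes. An unadjusted p under 0.05 with a lower level in knockout was found for 6 of 9, namely Tmem119, Cx3cr1, Csf1r, Siglech, Sall1 and Fcrls, and for 6.89% of all genes.

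Csf1r had its lowest, median and highest knockout callosum libraries at 97.3, 111 and 133 CPM, against 147, 137, 130, 150 and 143 CPM in the wild-type callosum libraries. Of the 6 knockout values 5 were below the whole wild-type range, and 1 overlapped it. The log2 fold change was -0.35 (SE 0.09, adjusted p = 0.248 by edgeR). DESeq2 called the gene at -0.33 (adjusted p = 0.0292), as did limma-voom with sample quality weights at -0.37 (adjusted p = 0.0185). DESeq2 called 1.12% of all genes in this comparison and limma-voom 18.0%.

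Cx3cr1, the receptor for the neuronal chemokine fractalkine, had 51.5, 59.7 and 65.2 CPM as lowest, median and highest values in knockout callosum, against 68.7, 61.0, 69.3, 65.7 and 65.6 CPM in wild-type callosum. Again 5 of 6 knockout libraries were below all wild-type libraries. Its log2 fold change was -0.19 (SE 0.08, adjusted p = 0.406 by edgeR).

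P2ry12 had 25.4, 30.5 and 34.0 CPM in knockout callosum, as lowest, median and highest, against 38.0, 38.9, 33.1, 31.3 and 27.5 CPM in wild-type callosum. The groups overlapped widely, and only 2 knockout libraries were under the wild-type range. The log2 fold change was -0.19 (SE 0.11, adjusted p = 0.491 by edgeR). P2ry13, at 10.2 ± 1.54 CPM in knockout and 11.2 ± 0.642 CPM in wild-type callosum (SD, n = 6 and 5), had the smallest change of the 9, -0.15 (SE 0.12). Gpr34, a receptor for lysophosphatidylserine, was at 9.41 ± 1.78 CPM in knockout and 10.7 ± 3.28 CPM in wild-type callosum, a log2 fold change of -0.20 with an SE of the same size, 0.20. With 1 library left out, Gpr34 ran from -0.29 to -0.04 (without WT_CCg_30), P2ry13 from -0.20 to -0.08 (without KO_CCg_27) and P2ry12 from -0.23 to -0.12 (without WT_CCg_30).

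Tmem119 had 18.0, 21.2 and 30.2 CPM as lowest, median and highest in knockout callosum, against 28.5, 28.7, 23.6, 33.6 and 30.5 CPM in wild-type callosum. The highest knockout library, KO_CCg_717651, reached into the wild-type range and the other 5 lay below it. The log2 fold change was -0.38 (SE 0.14, adjusted p = 0.381 by edgeR); limma-voom with sample quality weights called it, among the 18.0% of all genes it called, at -0.46 (adjusted p = 0.0268). Siglech, a sialic-acid-binding receptor that signals through the adaptor encoded by Tyrobp, was at 14.1 ± 1.73 CPM in knockout and 17.1 ± 2.56 CPM in wild-type callosum (log2 fold change -0.28, SE 0.12). Fcrls ran from 14.0 to 18.7 CPM in knockout and from 18.7 to 21.1 CPM in wild-type callosum (log2 fold change -0.28, SE 0.09), with 5 of 6 knockout libraries below all wild-type ones.

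Sall1 had 57.8, 71.2 and 98.7 CPM as lowest, median and highest in knockout callosum, against 116, 105, 74.9, 105 and 76.2 CPM in wild-type callosum. Both groups were spread over a wide range, and 4 of 6 knockout libraries lay under the lowest wild-type one. The log2 fold change was -0.38 (SE 0.16, adjusted p = 0.406 by edgeR). It was called by limma-voom with quality weights at -0.55 (adjusted p = 0.0205), among the 18.0% of all genes called by that tool. Across the 9 genes no pair of callosum groups was without overlap, where 0.696% of all genes had every knockout library below every wild-type one.

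The other microglial identity genes had a like direction in the callosum, with 29 of 30 negative, a median of -0.31 and 0 called. Among the named ones, Itgam, which encodes an integrin of the complement receptor, was at 24.6 ± 2.46 CPM in knockout and 31.9 ± 1.54 CPM in wild-type libraries (log2 fold change -0.39, adjusted p = 0.209 by edgeR), and Ctss, the lysosomal protease cathepsin S, at 70.6 ± 7.39 CPM in knockout and 101 ± 16.2 CPM in wild-type libraries (-0.52, adjusted p = 0.211 by edgeR). Olfml3, which encodes a secreted glycoprotein, had -0.48, and the gene of the lipid-remodelling enzyme LPCAT2 had -0.41. Of the 10 tested genes for ligands and partners of the members, 6 were negative and 4 positive with 0 called. Csf1, a ligand of the Csf1r product, was at 54.7 ± 8.41 CPM in knockout and 78.4 ± 7.78 CPM in wild-type callosum (log2 fold change -0.53, adjusted p = 0.2 by edgeR). Il34, its other ligand, which neurons make, was at 18.7 ± 5.27 CPM in knockout and 12.5 ± 4.02 CPM in wild-type callosum (0.56, adjusted p = 0.413 by edgeR). Cx3cl1, the neuronal ligand of the Cx3cr1 product, was at 313 ± 111 CPM in knockout and 180 ± 76.1 CPM in wild-type callosum (0.78, adjusted p = 0.406 by edgeR). Tyrobp had -0.45. Genes that microglia raise around damage, a list of 15 with 14 tested, had 12 negative and 2 positive values, a median of -0.22 and 0 called.

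Of the oligodendrocyte and neuron markers 0 were called in the callosum, and their values are given beside those of the 9 genes. All 14 mature oligodendrocyte markers were negative with a median of -0.55, and their sums ran from 34616 to 67252 CPM in knockout and from 54976 to 91672 CPM in wild-type libraries. All 18 neuron markers were positive with a median of 0.65. With the mean neuron marker level as a covariate the median of the 9 genes was -0.15, and with the mean oligodendrocyte marker level it was -0.10. In that last fit 7 of 9 genes were negative and 2 positive, with Sall1 at 0.07, Gpr34 at 0.01, P2ry12 at -0.0015 and P2ry13 at -0.03. Both marker levels themselves went with genotype, so these fits cannot tell tissue make-up apart from an effect of the knockout. The part of tissue make-up in the result was not tested. Sample numbers came in a 2-digit and a longer format, whose meaning the labels do not give; within the 2-digit libraries (2 knockout, 2 wild-type) the median of the 9 genes was -0.27, and within the longer format (4 knockout, 3 wild-type) it was -0.23.

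**Figure D2:**
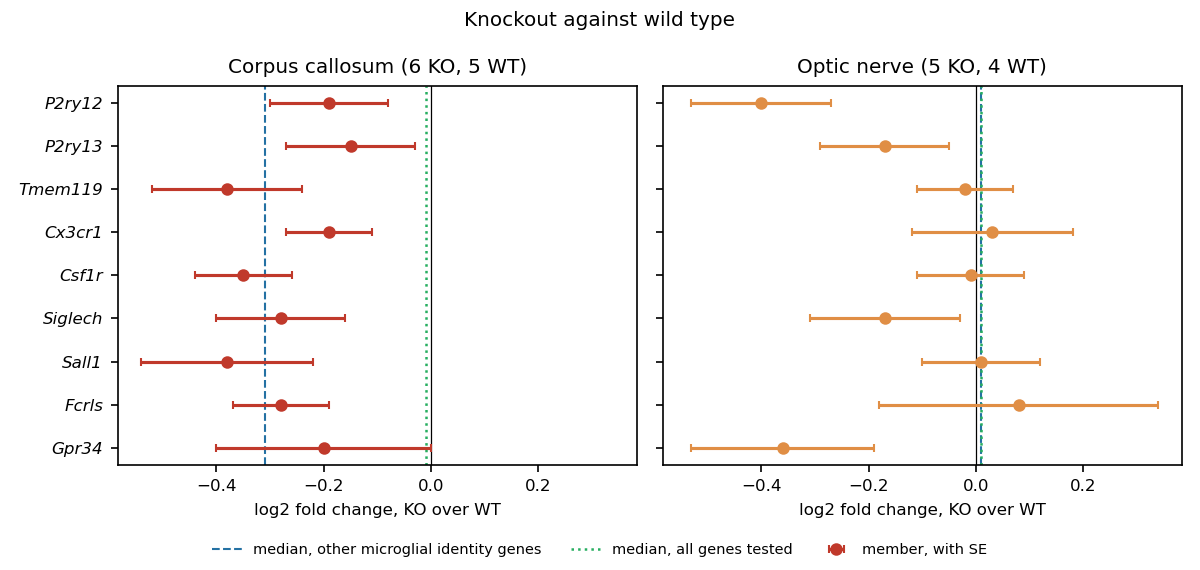
Log2 fold change of knockout over wild type (horizontal axes, points with SE) for the 9 genes in corpus callosum (left, 6 knockout and 5 wild-type libraries) and optic nerve (right, 5 and 4). Dashed lines are the median of 30 other microglial identity genes and dotted lines that of all genes tested; in the callosum all 9 points lie left of 0, with a median of -0.28, and in the nerve P2ry12 at -0.40 and Gpr34 at -0.36 lie farthest left.

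In the optic nerve, the fold changes of knockout over wild type were negative for 6 of the 9 genes and positive for 3, where 47.2% of all genes were negative, and the median was -0.02 against 0.01 over all genes. These values depended on 1 library: without KO_ON_719856, 8 of 9 were negative and the median was -0.14. None of the 9 was called, where 0.0129% of all genes were, and only P2ry12 had an unadjusted p under 0.05, where 2.64% of all genes had one with a lower level in knockout.

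P2ry12 was at 33.3, 38.3, 44.9, 43.2 and 33.2 CPM in the knockout nerve libraries, against 43.5, 59.7, 49.0 and 49.0 CPM in the wild-type nerve libraries. Of the 5 knockout libraries 4 lay below all wild-type libraries, and the other overlapped only the lowest of them. The log2 fold change was -0.40 (SE 0.13, adjusted p = 0.845 by edgeR). Gpr34 was at 9.11, 13.4, 15.9, 15.5 and 12.6 CPM in knockout nerve, against 16.1, 20.6, 16.8 and 14.2 CPM in wild-type nerve. Only the lowest wild-type library overlapped the knockout range. Its log2 fold change was -0.36 (SE 0.17, adjusted p = 0.845 by edgeR). P2ry13 had -0.17 (SE 0.12), from 17.5 ± 1.65 CPM in knockout and 19.4 ± 3.10 CPM in wild-type nerve. The transcripts of these receptors are low in GC, at 38.6% for P2ry12, 37.1% for Gpr34 and 44.7% for P2ry13, against a median of 50.3% over 13520 genes. Over all genes, the nerve fold change rose by 0.15 on the log2 scale for each 10 percentage points of GC, and after an adjustment for GC in each library P2ry12 had -0.23 (SE 0.09) and Gpr34 -0.18 (SE 0.11).

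Csf1r was at 312, 294, 273, 243 and 350 CPM in knockout nerve and at 271, 306, 277 and 319 CPM in wild-type nerve. The wild-type range lay inside the knockout range, and the log2 fold change was -0.01 (SE 0.10). Tmem119, with 73.7 ± 9.03 CPM in knockout and 73.7 ± 4.43 CPM in wild-type nerve, had -0.02 (SE 0.09). Sall1 had 0.01 (SE 0.11), at 110 ± 8.19 CPM in knockout and 108 ± 16.9 CPM in wild-type nerve.

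Cx3cr1 was at 112, 109, 108, 105 and 168 CPM in knockout nerve, against 92.7, 124, 113 and 134 CPM in wild-type nerve. Library KO_ON_719856 stood above all others of its tissue, and the other 4 knockout libraries lay within 105 to 112 CPM. Fcrls was at 30.1, 26.0, 18.9, 22.7 and 55.4 CPM in knockout nerve, against 22.7, 26.1, 35.0 and 29.8 CPM in wild-type nerve. The same knockout library was again the highest. Cx3cr1 had a log2 fold change of 0.03 (SE 0.15) and Fcrls 0.08 (SE 0.26); without KO_ON_719856 these were -0.10 (SE 0.11) and -0.23 (SE 0.16). The summed damage-associated microglia genes of that library were 12960 CPM. The other knockout nerves ran from 5778 to 7488 CPM and the wild-type nerves from 5638 to 6798 CPM. Apoe alone averaged 6571 ± 2744 CPM in knockout nerve and 5066 ± 482 CPM in wild-type nerve, so these sums are mostly Apoe. Siglech was at 22.4, 22.7, 32.1, 24.7 and 23.2 CPM in knockout nerve, against 30.7, 30.4, 22.5 and 28.4 CPM in wild-type nerve. Its highest knockout library, KO_ON_693452, lay above every wild-type library, and the other 4 sat low in or just below the wild-type range. The log2 fold change was -0.17 (SE 0.14), and without that library -0.30 (SE 0.11, adjusted p = 0.652 by edgeR).

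In the lists around the 9 genes no gene was called in the nerve. Of the other microglial identity genes 14 were negative and 16 positive with a median of 0.01; Mertk, a receptor for the uptake of dying cells, had the smallest p, with 21.9 ± 3.14 CPM in knockout and 28.8 ± 5.74 CPM in wild-type nerve (log2 fold change -0.42, adjusted p = 0.845 by edgeR). Ligand and partner genes had 2 negative and 8 positive values with a median of 0.07, among them Entpd1, an enzyme that breaks down the ATP and ADP that P2Y receptors sense, at -0.27 (adjusted p = 0.845 by edgeR). The damage-associated genes had 14 positive and 1 negative value, and a median of 0.18, where 8214 of all 15556 genes tested were positive. Library KO_ON_719856, with the highest sum of these genes (12960 CPM), was in this fit, and their count without it was not computed.

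Whether the effect of the knockout differed between the tissues was tested in 1 fit of all 20 libraries, as the nerve effect minus the callosum effect. None of the 9 genes passed, and 0% of the 16440 genes did so with edgeR, DESeq2 or limma-voom, although 6.83% had an unadjusted p under 0.05 with edgeR. Csf1r differed by 0.34 (SE 0.14) and Tmem119 by 0.37 (SE 0.17), each with an adjusted p of 0.725 by edgeR, and both had an unadjusted p under 0.05. The members ran from -0.20 for P2ry12 to 0.39 for Sall1 (SE 0.17 and 0.21), with 6 of 9 positive, where 54.0% of all genes were, and a median of 0.23 against 0.03 over all genes. Without knockout nerve library KO_ON_719856 the median was 0.08.

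In knockouts all 9 genes, and in wild types 7 of 9, were higher in the optic nerve than in the corpus callosum at an adjusted p under 0.05 by edgeR; Sall1 and Fcrls did not pass in wild types. In knockout libraries the log2 fold changes of nerve over callosum ran from 0.38 for P2ry12 to 1.72 for Tmem119, with a median of 0.83 against -0.00085 over all genes. In wild-type libraries they ran from 0.17 for Sall1 to 1.35 for Tmem119, with a median of 0.72 against -0.03. All 9 fold changes were positive in each genotype, where 49.9% of all genes in knockout and 48.0% in wild-type tissue were. A gene was called where its adjusted p was under 0.05 and its log2 fold change was 1 or more in size. That took 3 of 9 in knockout tissue (Tmem119, Cx3cr1 and Csf1r), where 30.1% of all genes were called in either direction, and 2 of 9 in wild-type tissue (Tmem119 and Csf1r), where 26.2% were. The 9 of 9 in knockout and 7 of 9 in wild-type tissue that were higher without the size threshold stand beside 31.9% of all genes in knockout and 25.3% in wild-type tissue. Without KO_ON_693452 the called members in knockout tissue were 4 of 9, Fcrls being added, and without KO_ON_719856, KO_CCg_27 or KO_CCg_719856 they were 2 of 9, Cx3cr1 being lost.

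Tmem119 had the largest fold change in both genotypes, with 73.7 ± 9.03 CPM in nerve against 22.4 ± 4.23 CPM in callosum of knockouts (SD, n = 5 and 6), and 68.2 to 78.5 CPM in nerve against 23.6 to 33.6 CPM in callosum of wild types. The log2 fold changes were 1.72 (SE 0.12, adjusted p = 1.7e-10 by edgeR) and 1.35 (SE 0.13, adjusted p = 3.8e-08 by edgeR). Csf1r rose by 1.39 in knockouts (SE 0.09, adjusted p = 1.3e-10 by edgeR) and by 1.05 in wild types (SE 0.10, adjusted p = 5.1e-08 by edgeR); after the GC adjustment the wild-type value was 0.96, below the size threshold. Cx3cr1 had 1.04 in knockouts (SE 0.11) and 0.81 in wild types (SE 0.13), and the knockout value was 0.89 without knockout nerve library KO_ON_719856 and 0.98 without KO_CCg_27 or KO_CCg_719856, below the size threshold. Of these genes every nerve library lay above every callosum library of its genotype.

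Differences between the members in the size of the tissue effect were not tested. P2ry13 had 0.79 (SE 0.12) in knockouts and 0.80 (SE 0.13) in wild types, and Siglech 0.83 (SE 0.12) in knockouts and 0.72 (SE 0.14) in wild types. P2ry12 had 0.38 (SE 0.11) in knockouts and 0.58 (SE 0.12) in wild types, and after the GC adjustment these were 0.70 and 0.71. Gpr34 had 0.50 (SE 0.19) in knockouts, 0.86 after the GC adjustment, and 0.66 (SE 0.21) in wild types. Its knockout value did not reach an adjusted p under 0.05 by edgeR without KO_CCg_717651, KO_CCg_719856, KO_ON_693452 or KO_ON_717651, with the highest, 0.0731, without KO_ON_693452. Fcrls had 0.88 (SE 0.19) in knockouts, 0.55 without KO_ON_719856 and 1.01 without KO_ON_693452, and 0.50 (SE 0.21, adjusted p = 0.056 by edgeR) in wild types. The wild-type value passed without KO_ON_693452 (adjusted p = 0.0346 by edgeR), KO_ON_719856 (adjusted p = 0.00323 by edgeR) or WT_ON_700858, the knockout libraries entering through the shared estimate of spread. Sall1 had 0.57 (SE 0.14) in knockouts and 0.17 (SE 0.15, adjusted p = 0.364 by edgeR) in wild types, where only 1 of 4 nerve libraries lay above every callosum library. Groups did not overlap for 7 of 9 members in each genotype, where nerve libraries lay wholly above callosum libraries for 23.2% of all genes in knockout and 22.1% in wild-type tissue.

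Marker lists of other cells, and other microglial genes, also differed between the tissues. Border-associated macrophage markers, of macrophages in the meninges and around vessels, had 10 of 10 tested genes called higher in the nerve of both genotypes, with medians of 4.32 in knockouts and 4.28 in wild types. Their sums were 120 to 213 CPM in knockout nerve against 18.6 to 31.8 CPM in knockout callosum, and 111 to 177 CPM in wild-type nerve against 25.2 to 32.4 CPM in wild-type callosum, and none of the 12 was at 0 in every library of a group. Monocyte and neutrophil markers had 9 of 9 tested genes called higher in both genotypes, and Ly6g, a defining neutrophil marker, was at 0 in every callosum library. Meningeal fibroblast markers had 10 of 10 called higher in both. The other microglial identity genes had medians of 1.34 in knockouts and 1.09 in wild types, with 20 and 18 of 30 called higher and 1 called lower in each. Of the damage-associated genes 13 of 15 were called higher in knockouts and 12 of 15 in wild types, with medians of 2.32 and 1.61. Their log2 fold changes ran from 0.04 to 5.47 in knockouts and from 0.09 to 5.13 in wild types. Their sums were 5778 to 12960 CPM in knockout nerve against 1924 to 2481 CPM in knockout callosum. In wild types the sums were 5638 to 6798 CPM in nerve against 1970 to 2807 CPM in callosum. Apoe made up most of the wild-type sums, with means of 5066 CPM in nerve and 1927 CPM in callosum. Endothelial markers had sums of 543 to 730 CPM in knockout nerve against 301 to 347 CPM in knockout callosum, and 634 to 655 CPM in wild-type nerve against 314 to 366 CPM in wild-type callosum, with 4 of 10 called higher in knockouts and 3 of 10 in wild types. Astrocyte markers summed to 9401 to 12765 CPM in knockout nerve against 3616 to 4713 CPM in knockout callosum, and to 9534 to 12322 CPM in wild-type nerve against 4007 to 5036 CPM in wild-type callosum, with 4 of 10 called higher and 1 lower in each genotype. The astrocyte markers had medians of only 0.39 in knockouts and 0.13 in wild types. Gfap alone was at 6945 ± 968 CPM in wild-type nerve against 895 ± 175 CPM in wild-type callosum, a large part of the rise in the sum. Neuron markers had 17 of 18 called lower in the nerve of knockouts and 16 of 18 in that of wild types. Csf1r and Cx3cr1 are also expressed by border macrophages and monocytes, and the part of those cells and of tissue make-up in the tissue difference was not tested.

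**Figure D3:**
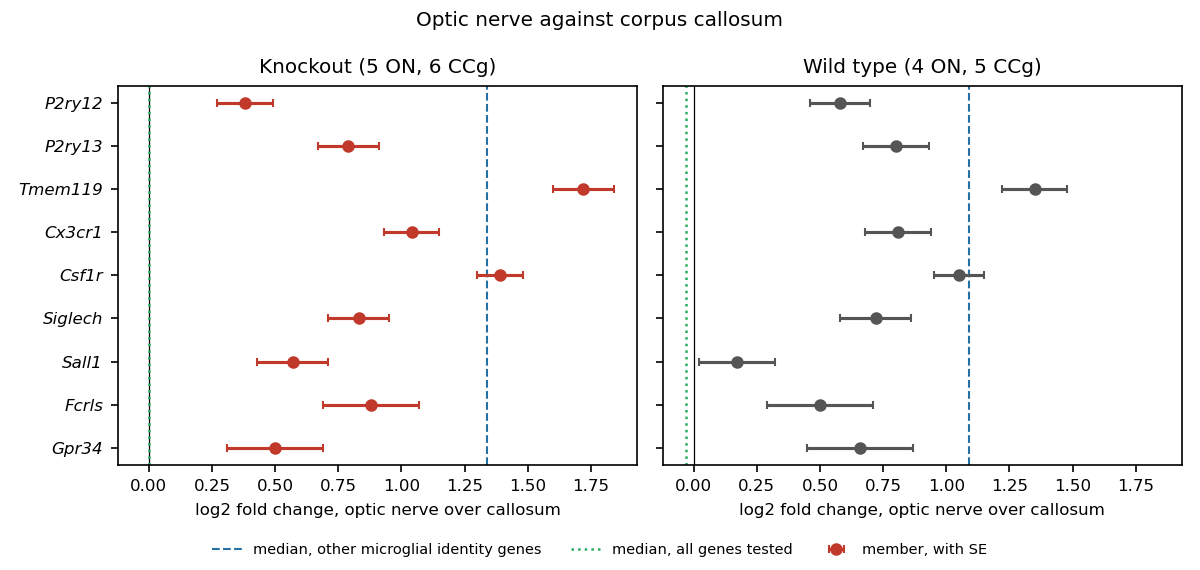
Log2 fold change of optic nerve over corpus callosum (horizontal axes, points with SE) for the 9 genes in knockout (left, 5 nerve and 6 callosum libraries) and wild-type mice (right, 4 and 5). Dashed lines are the median of 30 other microglial identity genes, 1.34 in knockouts and 1.09 in wild types, and dotted lines that of all genes; all 18 points lie right of 0, with Tmem119 farthest and Sall1 in wild types nearest.

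Within groups, the 9 genes did not move as one. Deviations of log2 CPM from the 4 group means were correlated over the 20 libraries, which share their depth and base composition across genes, so the coefficients are descriptions. Of 36 pairs 22 were positive, with a median Pearson r of 0.18 and a range of -0.54 to 0.84. P2ry12 and Gpr34 had the highest, 0.84, and it was 0.89 in the 11 callosum and 0.82 in the 9 nerve libraries. Tmem119 and Csf1r followed with 0.76, 0.79 in callosum and 0.85 in nerve. Gpr34 had -0.54 with both Tmem119 and Csf1r. The neighbours P2ry12 and P2ry13 had only 0.23. With the mean deviation of the neuron markers the members ran from -0.67 for Sall1 to 0.47 for Fcrls.

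The transcripts of these pairs also differ in GC content. Gpr34 (37.1%) and P2ry12 (38.6%) are the lowest of the 9 and Csf1r (54.5%) and Tmem119 (59.1%) the highest, around a median of 50.3% over 13520 genes. A slope of deviation on GC was computed over all those genes for each library, and it ran from -0.23 to 0.26 on the log2 scale per 10 percentage points. Gpr34 correlated with that slope at -0.86 and P2ry12 at -0.70, while Tmem119 did so at 0.68 and Csf1r at 0.64. The members between them were not ordered by GC. P2ry13 (44.7%) had 0.24, Siglech (45.5%) -0.59, Fcrls (48.5%) 0.39, Cx3cr1 (50.3%) 0.22 and Sall1 (51.6%) -0.50. The mean of Tmem119 and Csf1r minus the mean of Gpr34 and P2ry12 correlated with the slope at 0.89 over 20 libraries, 0.89 in callosum and 0.95 in nerve. After each library was adjusted for GC, that value was 0.11, Gpr34 and Tmem119 had 0.19, P2ry12 and Gpr34 had 0.33, and Tmem119 and Csf1r had 0.58. The adjustment removes the same GC trend that the slope measures, so the fall to 0.11 was largely built in. These library slopes spanned -0.19 to 0.26 (knockout callosum), -0.23 to 0.17 (wild-type callosum), -0.14 to 0.17 (knockout nerve) and -0.03 to 0.04 (wild-type nerve). Being slopes of deviations from group means, they are centred within each group, so overlap between genotypes was built in. They cannot show whether the GC trend differed between genotypes. The slope on GC of the knockout over wild-type fold change was -0.01 in callosum and 0.15 in nerve, per 10 percentage points.

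**Figure D4:**
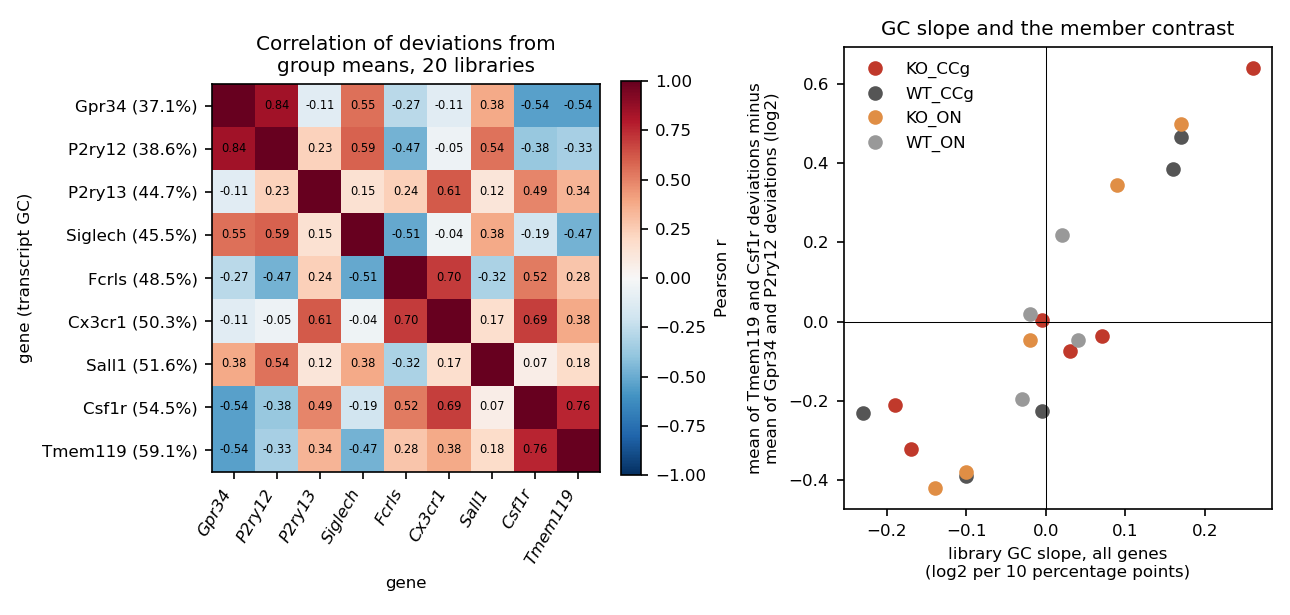
Left, Pearson r of deviations from group means over 20 libraries for each pair of the 9 genes, ordered by transcript GC content; the low-GC pair Gpr34 and P2ry12 (0.84) and the high-GC pair Tmem119 and Csf1r (0.76) are positive within and negative between pairs. Right, each library's GC slope over all genes (horizontal, log2 per 10 percentage points) against the high-GC pair minus the low-GC pair (vertical, log2), coloured by group, with r = 0.89.

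Fcrls and Gpr34 had the largest SD within groups, 0.30 on the log2 scale each, and Csf1r the smallest, 0.13. The value of Fcrls rested on KO_ON_719856, without which its SD was 0.18, that of Gpr34 0.31 and that of Sall1 0.21. Among 13536 other genes at a mean log2 CPM of 1 or more, the 8 whose deviations were most like the mean of the standardized deviations of the 9 were Pou3f1 (r = 0.88), Havcr2 (0.79), Smad7 (0.76), Dazap2 (0.76), Slc10a7 (0.76), Leprot (0.75), Slc35f6 (0.75) and Dnph1 (0.75), over 20 libraries. Without KO_ON_719856 Pou3f1 had 0.88 and the other 7 had 0.66 to 0.73. None of them is on the list of other microglial identity genes. Pou3f1 encodes a POU-domain transcription factor, Havcr2 the immune receptor TIM-3 and Smad7 an inhibitor of transforming growth factor beta signalling.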

How the data were processed

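RNA sequencing of dissected corpus callosum and optic nerve gave 20 libraries from a strand-keeping mRNA kit, per the labels' protocols. The deposited table holds estimated counts (expected counts) per gene with no scaling between libraries by the authors; 69.9% of values above 0 are not whole within a tolerance of 1e-06. Per the submitters' processing notes the build is mm10; the sources used here do not give the quantifier's version and annotation. The genes of the set and all gene lists were chosen with earlier results of these data known.

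After rounding, low genes were removed by filterByExpr at a minimum count of 10 and a minimum total of 15, and TMM factors were applied. The quasi-likelihood test of edgeR 4.0.16 (R 4.3.3) was run in each tissue alone, and the contrasts between tissues came from 1 model over the 4 groups; p-values were Benjamini-Hochberg adjusted over all genes tested. Printed CPM use TMM factors of all 20 libraries, and standard errors were derived from each fold change and F value. Transcript lengths and GC are of the longest coding transcript in a GENCODE annotation of the same build. DESeq2 1.42.0 and limma 3.58.1 served as alternatives, with other scalings and filters, marker and number-format covariates, a GC adjustment and an oligodendrocyte covariate added after seeing the data, a replicate block and fits without each library. The pipeline was tested on simulated counts.

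Genes named are the 9 members, Zdhhc9, up to 4 genes with the smallest p in each tissue from each list (other microglial identity, ligands and partners, border macrophage, monocyte and neutrophil, damage-associated, lymphocyte, neuron, mature oligodendrocyte, astrocyte, meningeal fibroblast, endothelial), and the 8 genes most like the members; Ly6g, Med12l, Hmgxb3, Gm33858 and Cask were named after their values or positions were seen. The biological coefficient of variation was 23.7% in callosum and 20.2% in nerve. Intervals and errors cover the spread between libraries only, and 0 pairs of libraries were identical.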

Additional observations from a re-analysis of the deposited data

Results flagged for a closer look

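Each of the 36 sets of libraries (9 genes in 4 groups) was examined for a lone library by Dixon's ratio, the gap to the nearest library over the range, and 2 exceeded its 95% critical value; chance flags about 1 in 20. Cx3cr1 was at 168 CPM in knockout nerve library KO_ON_719856, where the nearest of its group was at 112 CPM (ratio 0.90, critical value 0.71 for 5 libraries). Siglech was at 32.1 CPM in knockout nerve library KO_ON_693452, where the nearest was at 24.7 CPM (ratio 0.77).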

How the results depend on the processing

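The corpus callosum direction of the 9 genes held under other scalings, filters, tools and the GC adjustment and without each library in turn, with medians of -0.30 to -0.23 without one library; with the oligodendrocyte marker covariate, chosen after seeing the data, it did not hold for Sall1 (0.07) and Gpr34 (0.01), and P2ry12 (-0.0015) and P2ry13 (-0.03) were near 0. The median was then -0.10, and -0.15 with the neuron marker covariate. DESeq2 called 1 of the 9 and limma-voom with quality weights 3. Over all genes in callosum edgeR called 6, against 174 with DESeq2, 2786 with limma-voom, 41 in the joint fit, 10 with the number format covariate, 3 with the oligodendrocyte covariate, 2 in the longer format alone, 0 in the 2-digit format alone (both with fewer libraries), and 2 to 41 without one library, 41 without library WT_CCg_685232. In the nerve edgeR called 2 genes, against 35 with DESeq2, 1 with the neuron covariate and 1 in 6-digit numbers alone.

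Nerve effects near 0 changed sign. Cx3cr1 had -0.04 with limma-voom and -0.06 with the neuron covariate, Fcrls -0.03 and -0.14 in the same fits, Sall1 -0.03 with limma-voom and -0.0076 after the GC adjustment, and in the joint fit Tmem119 had 0.00046 and Csf1r 0.0062. Without one library Tmem119 ran from -0.06 to 0.01, Cx3cr1 from -0.10 to 0.12, Csf1r from -0.08 to 0.04, Sall1 from -0.07 to 0.11, Fcrls from -0.23 to 0.20 and the median from -0.14 to 0.0059. In the difference between tissues P2ry13 had 0.0058 with upper-quartile factors and 0.05 after the GC adjustment, and Gpr34 0.05 after it; without one library P2ry13 ran from -0.12 to 0.05, the median from 0.08 to 0.28 and the count of all genes called from 0 to 1. In the tissue comparison the GC adjustment left 1 of 9 called in wild types, the knockout count ran from 2 to 4 without one library, and the knockout median was 0.66 with limma-voom.

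There are 4 sample numbers that occur in both tissues (as in KO_CCg_719856 and KO_ON_719856), and the labels do not say that a number is an animal. The numbers were not taken as pairs in the main fit because only 4 of them occur in both tissues. Deviations of same-numbered libraries correlated with r of 0.02, -0.15, 0.13 and -0.05, which cannot show whether a number is an animal. The replicate block by duplicateCorrelation had a correlation of -0.11 and gave P2ry13 0.0028 in the difference between tissues. With the block and the GC adjustment together P2ry12 had 0.0064, P2ry13 0.07 and Gpr34 0.03 there, and 1 of 9 was called in the wild-type tissue comparison. The replicate block as a fixed term, over the 8 libraries that share a number, called 0 of 9 in wild types and 2503 genes in all, 1 gene for the difference between tissues, and gave Sall1 -0.24 in the wild-type tissue comparison and Fcrls -0.07 in the difference between tissues. The cause of these changes was not tested, and in the fixed-term fit the block cannot be told apart from the smaller number of libraries.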

Other observations

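Marker lists of other cell types held no gene called between genotypes in either tissue. In corpus callosum 9 of 10 astrocyte markers were negative with a median of -0.11 and 0 called; Gfap, the intermediate filament of astrocytes, was at 604 ± 100 CPM in knockout and 895 ± 175 CPM in wild-type libraries (log2 fold change -0.58, adjusted p = 0.257 by edgeR), and S100b at 90.2 ± 15.4 CPM in knockout and 148 ± 37.6 CPM in wild-type libraries (-0.72, adjusted p = 0.247 by edgeR). Endothelial markers had 7 of 10 negative with a median of -0.03, meningeal fibroblast markers 7 of 8 tested negative with a median of -0.24, border-associated macrophage markers 5 of 7 tested negative with a median of -0.21, the 2 tested monocyte and neutrophil markers -0.35 (Ly6c2) and 0.0083 (Fn1), and lymphocyte markers 1 of 4 tested negative with a median of 0.07, with 0 called in each.

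In the optic nerve, medians were -0.04 for astrocyte, 0.03 for endothelial, 0.09 for meningeal fibroblast, 0.05 for border-associated macrophage, -0.20 for monocyte and neutrophil, -0.0028 for lymphocyte, 0.42 for neuron and -0.17 for mature oligodendrocyte markers, with 0 called in each.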
